A study of Mus musculus with 9 samples.

Results

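Pachytene spermatocytes were taken from single cell RNA-seq of whole mouse testis as barcodes with at least 20000 UMIs, at least 5 UMIs of Piwil1, and more UMIs of Piwil1 than of Pou5f2, Acr, Pgk2 and Ccna1 together. The rule gave 2161 members among 45132 barcodes with over 1000 detected genes and under 10% mitochondrial UMIs, of which 10667 had at least 20000 UMIs. A UMI is a tag that counts 1 captured transcript, and values per gene are given as CPM, the UMIs of the gene divided by all UMIs of the members of a mouse and scaled to 1000000. The 5 genes of the rule chose the members, so their levels are described and not tested.

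The study asked what germ cells need NELF-B and TDP-43 for. NELF-B is a subunit of the complex that holds RNA polymerase II in a pause soon after it starts a gene, and TDP-43 is a protein that binds RNA and DNA. Testes of male mice at postnatal day 24 on a C57BL/6 background gave 1 library each. There were 4 control mice, and the NELF-B cKO had 2 mice and the TDP-43 cKO 3. The cKO mice carried 1 floxed and 1 null allele of Nelfb or Tardbp and the Stra8-iCre transgene, a recombinase made in spermatogonia, so the deletion begins in cells that come before those described here. The floxed part is exons 1 to 4 of Nelfb and exon 3 of Tardbp. The study reports that this deletion becomes complete only as the mice age and that some germ cells escaped it. It removed cKO germ cells that expressed the targeted gene. Such cells are kept here, so some cKO members may not carry the deletion. The controls were littermates or other mice, and the labels give all 9 mice as C57BL/6. The labels do not give the alleles or transgenes of the single control mice. The name of the deposited matrix of control replicate 2 adds the tag het to the word control, which no source used here explains, so this mouse may be heterozygous. The libraries are 3′ libraries of 119203347 to 159407373 UMIs.

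In pachytene, homologous chromosomes are held together along their whole length by the synaptonemal complex while breaks made earlier are repaired, only some of them as crossovers. The unpaired X and Y chromosomes lie in the sex body, where their genes are silenced. Autosomal transcription rises to a high level, with many long noncoding RNAs, piRNA precursors and genes that the later spermatid will use. Piwil1, the Piwi protein that carries pachytene piRNAs, is a common marker of the stage.

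The 4 control mice gave 199, 425, 393 and 606 members. The NELF-B cKO mice gave 232 and 45, and the TDP-43 cKO mice gave 8, 134 and 119. Because replicate 1 of the TDP-43 cKO had only 8 members, it was left out of the tests of gene expression and of every test of a share within the members. It entered only an alternative fit that held every mouse. Some cells lay close to the limits of the rule, with 172 members of 5 or 6 Piwil1 UMIs, 148 members of 20000 to under 25000 UMIs and 132 other barcodes of 15000 to under 20000 UMIs that met the rest of the rule. The median depth of a member was 53739 to 62906 UMIs for control, 68686.5 and 81608 for the NELF-B cKO, and 89524.5, 61947 and 62666 in the TDP-43 cKO. At a common depth of 20000 UMIs, the median number of genes per member lay between 5354.5 and 5506.5 in all 9 mice. The median of Piwil1 was 43 to 60 UMIs per member in control, 53.5 and 66 in the NELF-B cKO, and 40, 48 and 38 in the TDP-43 cKO.

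As a share of the barcodes with at least 20000 UMIs, the members were 37.3%, 37.5%, 41.3% and 43.5% in control, 23.1% and 3.44% in the NELF-B cKO, and 0.415%, 12.3% and 8.97% in the TDP-43 cKO. No cKO mouse reached the lowest control mouse. The mean was 39.9% ± 3.06 (SD, n = 4) in control, 13.3% ± 13.9 (SD, n = 2) in the NELF-B cKO and 7.24% ± 6.14 (SD, n = 3) in the TDP-43 cKO. The difference from control was -26.6 percentage points in the NELF-B cKO (two-sided exact permutation test, p = 0.133) and -32.7 in the TDP-43 cKO (p = 0.0571, two-sided exact permutation test). Both are the smallest p that these numbers of mice allow. As a share of all barcodes past the filter the members were 2.61% to 12.4% in control, 4.11% and 1.51% in the NELF-B cKO, and 0.203%, 4.43% and 3.45% in the TDP-43 cKO. These ranges overlapped, and the differences of -4.12 points (p = 0.267, exact permutation test) and -4.24 points (p = 0.229, exact permutation test) were within the spread between mice. Without NELF-B cKO replicate 2 the difference at 20000 UMIs was -16.8 points, and without control replicate 4 those over all barcodes were -2.29 and -2.41 points. The median of UMIs over all barcodes past the filter was 1754 to 6369 for control and 5165 to 19254 for the cKO mice, so the 2 denominators hold different parts of each library, and the part that depth has in either share was not tested.

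**Figure D1:**
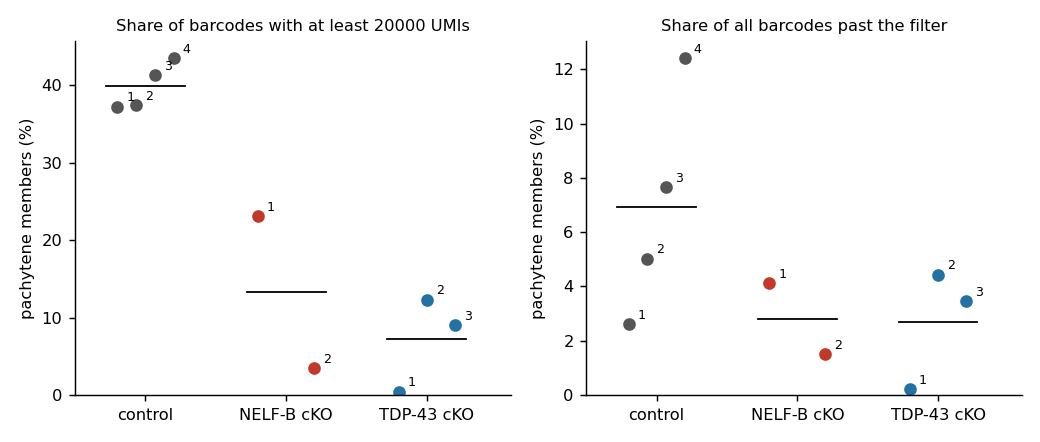
Pachytene members as a percentage of barcodes with at least 20000 UMIs (left) and of all barcodes past the filter (right), with 1 point per mouse, the replicate number beside it and a line at the group mean. On the left the 4 control mice sit between 37.3% and 43.5%, above all 5 cKO mice, and on the right the groups overlap.

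Other stages of meiosis were used to describe the members. Late cells met the same limits of depth and Piwil1 but had no more Piwil1 than late-gene UMIs (those of Pou5f2, Acr, Pgk2 and Ccna1) (873 barcodes), and early meiotic cells had at least 20000 UMIs, at most 1 UMI of Piwil1 and at least 5 UMIs of Dmc1, Meiob and Prdm9 (1044 barcodes). The early meiotic cells numbered 6, 29, 19 and 25 in control, 45 and 128 in the NELF-B cKO, and 369, 176 and 247 in the TDP-43 cKO. The late cells numbered 74, 270, 120 and 173 in control, 171 and 5 in the NELF-B cKO, and 1, 32 and 27 in the TDP-43 cKO. NELF-B cKO replicate 1 therefore held late cells in numbers within the control range, and replicate 2 held almost none.

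Markers that the rule did not use are given as a description of cells chosen by expression. They were chosen with earlier results of these data known, so their levels do not test the label. Elfn2, a membrane protein, stood at 248 to 333 CPM in the members of the control mice, 76.8 to 123 CPM in their late cells and 10.5 to 20.2 CPM in their early meiotic cells. Id4, an inhibitor of transcription factors, stood at 143 to 167, 64.5 to 76.4 and 14.5 to 21.9 CPM in the same order. Cntd1, a crossover factor, stood at 145 to 186, 106 to 116 and 58.7 to 108 CPM. All 3 pachytene markers were thus highest in the members. Of the markers of late pachytene and diplotene outside the rule, Ovol2 stood at 50.1 to 51.9 CPM in the members and 162 to 176 CPM in the late cells, and Nme8 at 14.2 to 18.6 and 125 to 183 CPM, so both were higher in the late cells. By genotype, Cntd1 in the members stood at 171, 158, 145 and 186 CPM in control, 124 and 215 in the NELF-B cKO, and 88.2, 177 and 201 in the TDP-43 cKO. Id4 lay between 104 and 197 CPM and Elfn2 between 220 and 333 CPM over the 9 mice. None of the 3 differed beyond the spread between mice in either cKO (edgeR, adjusted p of 0.954 or above).

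The genes that set the members of the control mice apart from both other stages included the unnamed gene Gm21221, Tdrd1 and Hist1h1t. Gm21221, a gene on chromosome 5, had 124 ± 8.19 CPM (SD, n = 4) in the members, 15.7 in late cells and 4.84 in early meiotic cells. Tdrd1, a Tudor protein that binds Piwi proteins in the germline granule, had 279 ± 15.7 CPM in the members against 76.2 and 71.2. Hist1h1t, the linker histone H1t of spermatocytes, had 138 ± 8.79 CPM against 39.8 and 16. Gstt2, a glutathione transferase, had 304 ± 19.8 CPM against 74.4 and 21.1, and Cyp19a1, the aromatase that makes estrogen, had 409 ± 34.4 CPM against 126 and 14.6. The other leading genes were Slc25a21, Kcnk10, AC163638.2, Kif6, 2700054A10Rik, Slc47a2, Stambp, Gm36617, Cers3, Adad2, Pnmal1, Gm10619, Gm50166, Gm12648 and Gm50165. These are the 20 genes with the largest ratio to the higher of the other stages among genes of at least 50 CPM in every control mouse, and their levels are a description of cells chosen by expression.

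Some members did not bear out the label. In 238 members, called mixed barcodes here, the markers of spermatogonia, Sertoli, Leydig, myoid, endothelial and interstitial cells and of macrophages summed to more UMIs than the 4 pachytene markers (Piwil1, Cntd1, Id4 and Elfn2). They numbered 15, 89, 39 and 39 in control, 23 and 6 in the NELF-B cKO, and 3, 9 and 15 in the TDP-43 cKO, so that control replicate 2 held the largest number. Their median of Piwil1 was 6 or 7 UMIs in every mouse, against 47 to 73 UMIs in the other 1923 members, and the pachytene markers summed to 86.2 to 654 CPM in them against 1380 to 1653 CPM, values that the limit itself uses. Their median X-linked share, given below with those of the other stages, lay in the range of the early meiotic cells and not of the other members. They are members by the rule alone, and whether they are pachytene cells was not tested. Sertoli markers summed to 139 to 3866 CPM in the mixed barcodes and to 47.2 to 246 CPM in the others. This limit was set after the values were seen, and the counts of called genes are given for all members and without the mixed barcodes. Of the members, 27 had a barcode that also passed the filter in another library.

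X-linked transcripts were scarce in the members of every mouse. The median share of nuclear UMIs from X-linked genes per member was 0.122%, 0.123%, 0.116% and 0.119% in control, 0.0967% and 0.178% in the NELF-B cKO, and 0.143%, 0.165% and 0.181% in the TDP-43 cKO. In early meiotic cells the median was 1.42% to 2.43% for control and 2.31% to 2.62% in the cKO mice. In late cells it was 0.0556% to 0.0790% in control, 0.133% and 0.107% in the NELF-B cKO, and 0.0743% and 0.0738% in replicates 2 and 3 of the TDP-43 cKO. The median share in members was thus below that of early meiotic cells in all 9 mice.

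**Figure D2:**
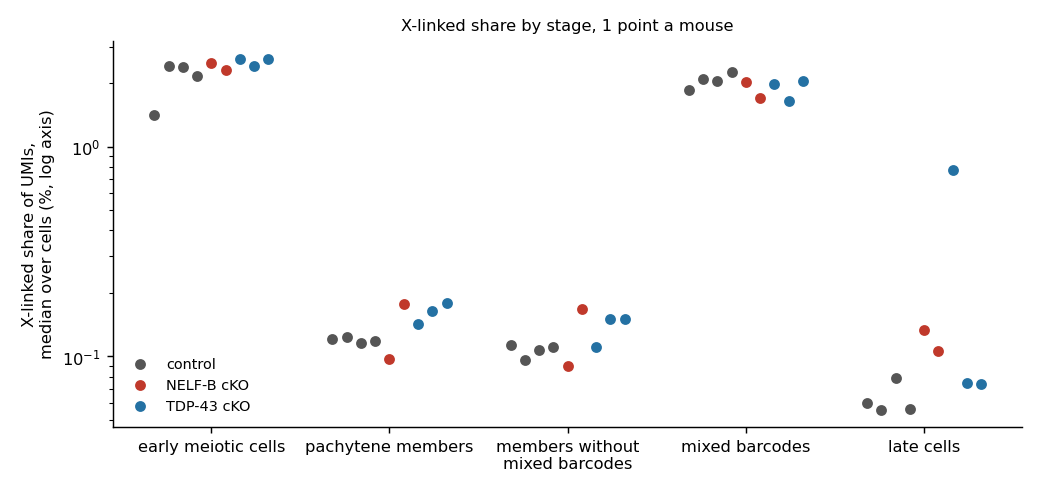
X-linked share of nuclear UMIs, as the median over cells in percent on a log axis, for early meiotic cells, pachytene members, members without mixed barcodes, mixed barcodes and late cells, with 1 point per mouse. Members sit between 0.0967% and 0.181% in all mice, below the early meiotic cells (1.42% to 2.62%), the mixed barcodes sit at 1.65% to 2.26%, and the single late cell of TDP-43 cKO replicate 1 stands at 0.770%.

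Summed over the members, the X-linked share was 0.233%, 0.503%, 0.280% and 0.249% in control, 0.297% and 0.413% in the NELF-B cKO, and 0.292% and 0.500% in replicates 2 and 3 of the TDP-43 cKO. TDP-43 cKO replicate 1, in no test, stood at 0.840%, the highest of the 9 mice. The difference from control was 0.0387 percentage points in the NELF-B cKO (p = 0.8, two-sided exact permutation test) and 0.0801 points in the TDP-43 cKO (p = 0.4, two-sided exact permutation test), with 0.133 the smallest p possible for both. At 20000 UMIs per member the differences were 0.0111 points in the NELF-B cKO and 0.0108 points in the TDP-43 cKO. The control mouse at 0.503% is the one with the most mixed barcodes, whose own median X-linked share was 1.65% to 2.26% over the 9 mice. Without them the share was 0.153%, 0.130%, 0.134% and 0.125% in control, 0.146% and 0.193% in the NELF-B cKO, and 0.192% and 0.231% in the TDP-43 cKO. The TDP-43 cKO replicates 2 and 3 then lay above all control mice, and the NELF-B cKO overlapped with control. Free RNA, read from barcodes of 1 to 100 UMIs, had an X-linked share of 0.898% to 1.11% for control and of 1.13% to 3.34% in the cKO mice. With free RNA subtracted as well, the share was 0.0640% to 0.0817% in control, 0.0919% and 0.110% in the NELF-B cKO, and 0.0978% and 0.132% in replicates 2 and 3 of the TDP-43 cKO, with these 4 mice above all control mice. TDP-43 cKO replicate 1, with 5 members left, stood at 0.113% before this subtraction and 0.0808% after it, below the highest control mouse in both.

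X-linked genes were also tested one by one. The filter on low counts asked for enough counts in only as many mice as the smallest group holds. An X-linked gene low in control could thus enter through the cKO mice alone. The part of this in the medians and counts below was not tested. In the TDP-43 cKO without the mixed barcodes, 457 X-linked genes were tested, with a median log2 fold change of 0.67, and 156 were higher and 19 lower at an unadjusted p under 0.05 (edgeR). The 15442 autosomal genes had a median of 0.01, with 360 higher and 625 lower. Over all genes tested, 3.27% were higher and 4.05% lower at that limit. No X-linked gene passed an adjusted p of 0.05 there. With all members the X-linked median was 0.26 (593 genes, 56 higher and 22 lower, against 1.32% higher and 3.48% lower of all genes), and without mixed barcodes and free RNA it was 0.70 (296 genes, 76 higher and 9 lower, against 2.43% higher and 1.76% lower of all genes). In the NELF-B cKO the medians were 0.18 without the mixed barcodes (75 higher and 24 lower, against 6.40% higher and 4.65% lower of all genes) and 0.04 with all members (31 higher and 16 lower, against 3.55% and 3.37% of all genes). With free RNA subtracted as well, the NELF-B cKO median was 0.56 (66 higher and 16 lower, against 6.98% higher and 4.97% lower of all genes), and 1 X-linked gene was among the 9 genes called (0.063% of 14279).

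Among X-linked genes, Usp26, a ubiquitin protease of the germline, stood at 7.55, 6.20, 5.77 and 5.21 CPM in the control members without mixed barcodes, 8.93 and 4.98 in the NELF-B cKO and 18.4 and 19.6 in TDP-43 cKO replicates 2 and 3. These 2 TDP-43 cKO mice exceeded all control mice (log2 fold change 1.63, SE 0.23, unadjusted p = 4.5e-05, adjusted p = 0.145, edgeR). Scml2, a Polycomb protein that acts on the sex body and on somatic genes, stood at 11.6, 10.7, 7.48 and 7.37 CPM in control, 20.1 and 35.1 in the NELF-B cKO and 22.6 and 36.2 in TDP-43 cKO replicates 2 and 3. The 4 cKO mice in the fit exceeded control, with log2 fold changes of 1.56 (SE 0.29, adjusted p = 0.11) and 1.67 (SE 0.28, adjusted p = 0.30). Taf7l, a germ cell variant of a TFIID subunit, stood at 5.68 to 10.4 CPM in control, 14.0 and 13.3 in the NELF-B cKO and 19.9 and 30.4 in TDP-43 cKO replicates 2 and 3. Replicate 1 of the TDP-43 cKO, with 5 members, did not exceed control for any of these genes, with Usp26 at 0, Scml2 at 10.9 CPM and Taf7l at 2.18 CPM. With all members Usp26 reached 52.3 CPM and Taf7l 50.2 CPM in control replicate 2, and the TDP-43 cKO then overlapped with control for both genes and for Scml2. Not every X-linked gene of at least 5 CPM in all control mice rose. Ndufa1, the highest of them, stood at 78.4 to 122 CPM in control and 108 and 130 in TDP-43 cKO replicates 2 and 3. There 2810403D21Rik was lower, at 12.5 and 12.3 CPM against 18.0 to 23.0 in control. Snx12 was lower in the NELF-B cKO, at 3.15 and 5.81 CPM against 8.27 to 11.5 in control. Usp26 and these 3 genes were named after their values were seen.

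Nelfb fell in the members of the NELF-B cKO. It stood at 28.1, 31.9, 27.0 and 31.8 CPM in the control members, at 1.95 and 4.97 CPM in the NELF-B cKO, and at 44.8, 29.4 and 34.1 CPM in the TDP-43 cKO. The NELF-B cKO mice did not overlap with any other mouse, and the log2 fold change was -3.37 (SE 0.32, adjusted p = 0.0141, edgeR's quasi-likelihood test over 17377 genes). Nelfb UMIs were found in 24 of 232 and 10 of 45 members of the NELF-B cKO and in 77.6% to 83.3% of the control members. At 20000 UMIs per member these shares were 3.02% and 6.67% against 47.2% to 49.6%. The estimate of free RNA gave 0.184 and 0.235 CPM of Nelfb in the NELF-B cKO members without mixed barcodes, where 1.58 and 4.15 CPM were measured. The call was lost when any 1 control mouse was left out (adjusted p of 0.0511 to 0.0850, with log2 fold changes of -3.37 to -3.29) or when only control and NELF-B cKO mice were fitted (adjusted p = 0.0600).

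Tardbp does not check its deletion here, since the 3′ end that is counted lies outside exon 3. It stood at 146, 121, 133 and 143 CPM in control, 136 and 178 in the NELF-B cKO, and 69.8, 117 and 110 in the TDP-43 cKO. All 3 TDP-43 cKO mice lay under the lowest control mouse, replicate 1 (8 members, not in the fit) the furthest, and the log2 fold change of -0.26 (SE 0.15) was within the spread between mice (adjusted p = 1.00, edgeR).

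**Figure D3:**
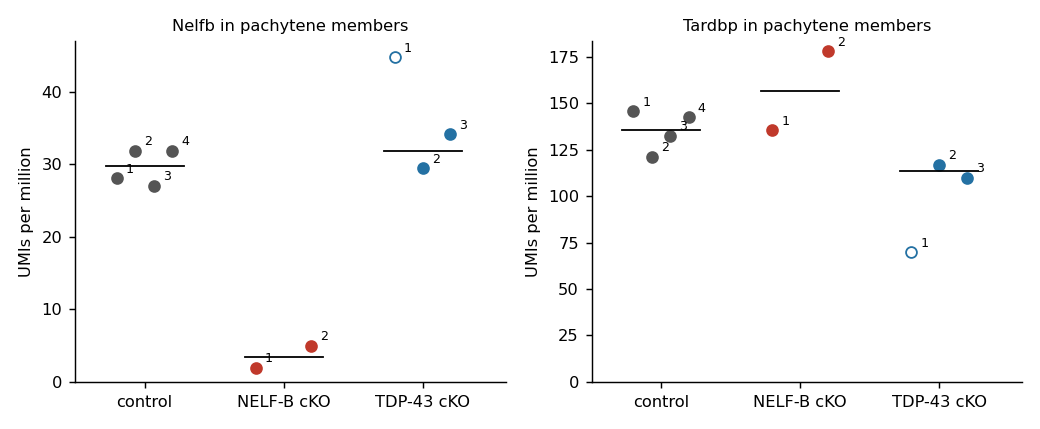
Nelfb and Tardbp in CPM of the pachytene members, with 1 point per mouse, the replicate number beside it and a line at the group mean. The open point is TDP-43 cKO replicate 1, which has 8 members and is in no mean. Nelfb stands at 1.95 and 4.97 in the NELF-B cKO and at 27.0 or more in every other mouse, while Tardbp in the TDP-43 cKO replicates 2 and 3 (117 and 110) sits just below control (121 to 146).

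Across all genes, 1 gene rose and 1 fell in the NELF-B cKO members at an adjusted p under 0.05, which is 0.0115% of 17377 genes tested. The one that fell was Nelfb. At an unadjusted p under 0.05, 617 genes (3.55%) were higher and 586 (3.37%) lower. DESeq2 called 68 genes higher and 11 lower on the same sums. At an adjusted p under 0.01 with the further demand of a 1-unit log2 change, the thresholds of the study, edgeR called 0 genes and DESeq2 called 1 in each direction.

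The gene that rose was 1700016K05Rik, which lies on chromosome 17 from 66714454 to 66720485 on the plus strand (GRCm38) and is annotated as an antisense transcript. It stood at 39.0, 38.8, 28.7 and 25.9 CPM in the control members, at 168 and 116 CPM in the NELF-B cKO, and at 82.9, 43.4 and 40.1 CPM in the TDP-43 cKO. The NELF-B cKO mice were the highest of all 9, with a log2 fold change of 2.09 (SE 0.20, adjusted p = 0.0141). Whether reads were counted by strand is not given in the sources used here, and the reads themselves were not examined. Leaving out control replicate 2, 3 or 4 or NELF-B cKO replicate 1 ended the call (adjusted p of 0.0655 to 0.0850), with log2 fold changes of 1.77 to 2.15. So did leaving out the 93 members of 150000 UMIs or more (2.06, adjusted p = 0.0596) and fitting only control and NELF-B cKO mice (2.11, adjusted p = 0.0600). It was called at a late-gene ratio (late-gene over Piwil1 UMIs) under 0.1 and also at 0.1 or more.

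Without the mixed barcodes, 5 genes rose and 1 fell in the NELF-B cKO (0.0377% of 15930 genes). Beside 1700016K05Rik these were Gm35454, 1700063H04Rik, Ptprn2 and Nmnat3. Gm35454, a long intergenic noncoding RNA on chromosome 9, stood at 1.31, 0.805, 0.796 and 0.928 CPM in control, 6.24 and 6.09 in the NELF-B cKO, and 1.74 and 1.70 in TDP-43 cKO replicates 2 and 3 (log2 fold change 2.74, SE 0.29, adjusted p = 0.021). 1700063H04Rik, a long intergenic noncoding RNA on chromosome 6, stood at 32.1, 22.7, 23.0 and 33.2 CPM in control and at 89.5 and 82.2 in the NELF-B cKO (1.65, SE 0.19, adjusted p = 0.036). Ptprn2, a phosphatase-like protein of secretory vesicles, stood at 9.14, 8.09, 7.09 and 6.79 CPM in control and at 33.6 and 22.1 in the NELF-B cKO (1.89, SE 0.23, adjusted p = 0.038). For each of these genes both NELF-B cKO mice exceeded all control mice.

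Nmnat3, an enzyme of NAD synthesis in mitochondria, was high in both cKO lines. Without the mixed barcodes it stood at 45.4, 36.3, 33.1 and 39.4 CPM in control, 112 and 79.1 in the NELF-B cKO, and 157, 85.5 and 97.6 in the TDP-43 cKO. It rose in the NELF-B cKO (log2 fold change 1.34, SE 0.16, adjusted p = 0.038), and in the TDP-43 cKO the log2 fold change was 1.25 (SE 0.16, adjusted p = 0.10). In members with a late-gene ratio of 0.1 or more it rose in both (1.39, adjusted p = 0.0147, and 1.42, adjusted p = 0.025). In members with a ratio under 0.1 it passed in neither (1.18, adjusted p = 0.37, and 0.71, adjusted p = 0.89). Both comparisons use the same control mice. With all members the 2 values were 1.22 (adjusted p = 0.21) and 1.25 (adjusted p = 0.17).

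The counts in the NELF-B cKO moved with single mice. With all members, 748 genes were called without NELF-B cKO replicate 2 and 2 without replicate 1. Without the mixed barcodes, 3142 genes were called without replicate 2, 347 without replicate 1, 4 without control replicate 1, and 0 without control replicate 2, 3 or 4. A lone cKO mouse is taken in such a fit to vary like the other groups.

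In the TDP-43 cKO, edgeR called 0 of 17377 genes over all members (0%), with 230 genes (1.32%) higher and 605 (3.48%) lower at an unadjusted p under 0.05, and DESeq2 called 20 higher and 77 lower. The 10 genes of lowest p were 8 that were higher and 2 that were lower, and 5 of them lie on the X chromosome. X-linked genes were 3.41% of all genes tested, and some entered the test through cKO mice alone, as given below. Gm5934 stood at 0.618, 0.562, 0.185 and 0.595 CPM in control and 7.17 and 22.2 in TDP-43 cKO replicates 2 and 3 (log2 fold change 4.89, SE 0.59, adjusted p = 0.17). Porcn, which attaches a fatty acid to Wnt proteins, stood at 0.706 to 1.27 CPM in control, 3.23 and 2.49 in the NELF-B cKO, and 5.86 and 5.33 in the TDP-43 cKO (2.34, SE 0.32, adjusted p = 0.17). Pet2 stood at 8.09 to 14.2 CPM in control and 28.2 and 43.3 in the TDP-43 cKO, 1700080O16Rik at 2.48 to 4.33 and at 9.23 and 21.3, and Xist, the RNA that coats an inactive X chromosome, at 0.310 to 0.706 and at 2.17 and 4.09. In these genes TDP-43 cKO replicates 2 and 3 exceeded all control mice, and none passed the adjusted limit. Gm5934 and Xist lay under the count minimum of the fit in every control mouse, so they entered the test through cKO mice alone. Replicate 1, with 8 members, was above control for Porcn (2.63) and Xist (1.32) and not for Gm5934 (0), Pet2 (11.8) and 1700080O16Rik (3.95).

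The autosomal genes among the 10 were Nmnat3, Resf1, Defb15, Cst8 and Sun5. Resf1, a repressor of retroelements, stood at 16.2, 28.6, 14.1 and 14.2 CPM in control and 40.1 and 82.7 in the TDP-43 cKO (log2 fold change 1.74, SE 0.31, adjusted p = 0.57). Cst8, a cystatin of the male tract, stood at 3.10 to 7.24 CPM in control and 0.543 and 0.248 in the TDP-43 cKO. Sun5, which anchors the sperm head to its tail, stood at 1.24 to 4.24 CPM in control and at 0 in every TDP-43 cKO mouse. Against a floor of 3 UMIs over replicates 2 and 3 of the TDP-43 cKO, Sun5 was at least 14.9-fold lower, a limit that covers counting error only. Cst8 and Sun5 lay under the count minimum of the fit in replicates 2 and 3 of the TDP-43 cKO. Both thus entered the test only through mice in which they were higher. With free RNA subtracted, neither Cst8 nor Sun5 had enough counts to be tested. The estimated share of free RNA was 8.30% to 13.1% in control and 5.36% and 5.34% in these 2 mice, and its part in both genes was not tested.

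Without the mixed barcodes, 1 gene was called higher in the TDP-43 cKO (0.00628% of 15930 genes). Its level in every control mouse lay under the minimum of the filter on low counts, so it entered the test through cKO mice alone. The call is thus not independent of the cKO values that let the gene in. It was Hnf4aos, annotated on chromosome 2 as an antisense transcript of Hnf4a, at 0.653, 0.350, 0.557 and 0.355 CPM in control, 0.722 and 0.830 in the NELF-B cKO, and 10.4 and 6.50 in TDP-43 cKO replicates 2 and 3, with 0 in the 5 members of replicate 1 (log2 fold change 4.20, SE 0.34, adjusted p = 0.0071). As for the other antisense gene, the reads themselves were not examined. No gene was called once control replicate 2, 3 or 4 was left out, and with free RNA subtracted the call of Hnf4aos was lost (adjusted p = 0.46, edgeR). With all members Hnf4aos stood at 4.41, 49.2, 23.7 and 3.88 CPM in control, 76.7 and 0.995 in the NELF-B cKO and 176, 18.0 and 12.5 in the TDP-43 cKO, and the log2 fold change was -0.38.

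**Figure D4:**
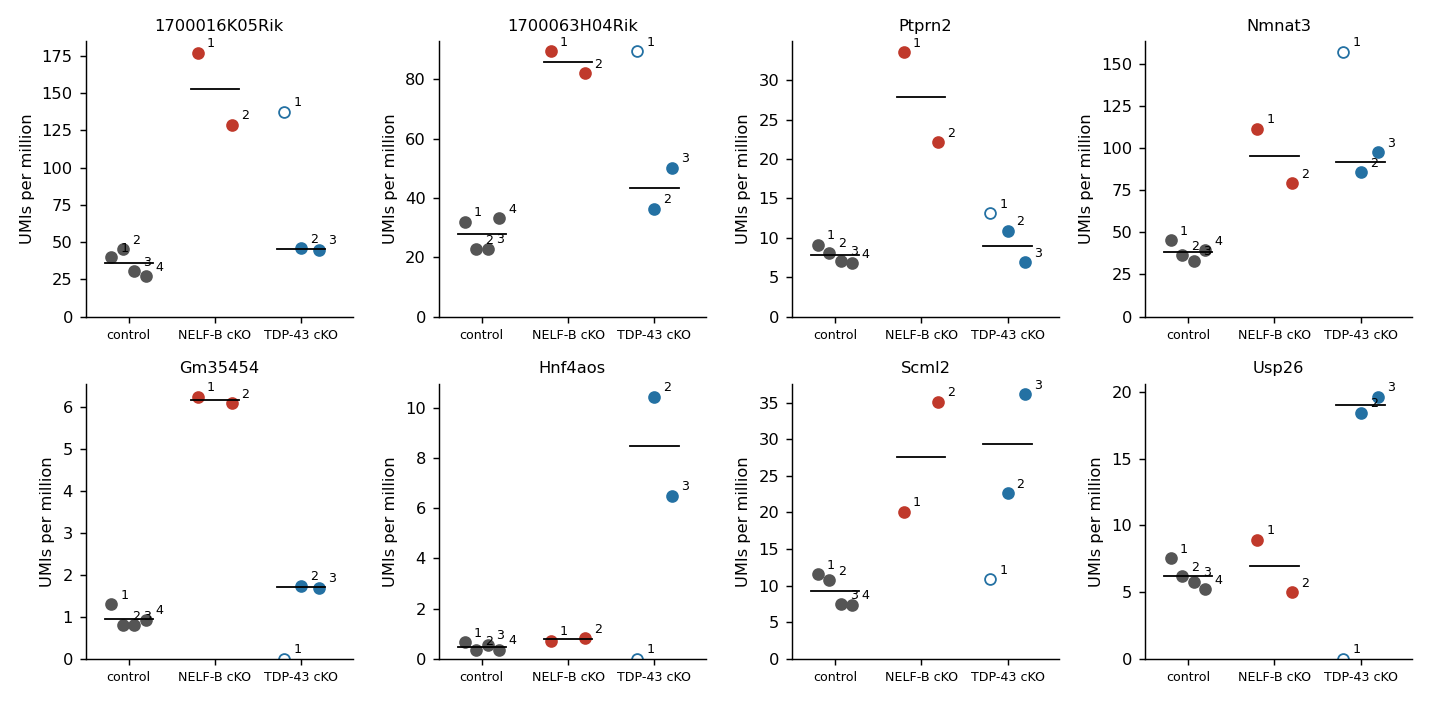
CPM in the members without mixed barcodes for the 5 genes that rose in the NELF-B cKO, Hnf4aos, called in the TDP-43 cKO, and the X-linked Scml2 and Usp26, with 1 point per mouse, the replicate number beside it and a line at the group mean. Hnf4aos lay under the count minimum of the fit in every control mouse and entered the test through cKO mice alone. The open point is TDP-43 cKO replicate 1, which has 5 such members and is in no mean. In the first 5 panels both NELF-B cKO mice lie above all control mice, and in the Hnf4aos panel replicates 2 and 3 of the TDP-43 cKO lie at 10.4 and 6.50 against 0.653 or less in control.

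The meiotic machinery of the members was described with lists of genes, over the members without mixed barcodes. Medians are log2 fold changes, the counts are at an unadjusted p under 0.05, and Nelfb was the only gene of any list that passed the adjusted limit. At that limit 6.40% of all genes tested were higher and 4.65% lower in the NELF-B cKO, and 3.27% higher and 4.05% lower in the TDP-43 cKO, the shares against which the counts of each list stand. TDP-43 cKO replicate 1 is in none of them. Over all genes tested the median was 0.00 in the NELF-B cKO and 0.02 in the TDP-43 cKO. Over all members the lists also had 0 calls apart from Nelfb, and in the TDP-43 cKO 0 to 4 genes of each list were higher at the unadjusted limit and 0 to 2 lower, apart from the spermatid genes described further on. Of all genes tested there, 1.32% were higher and 3.48% lower. The 4 were genes of the checkpoint list (Cdkn1a, Zfy1, Zfy2 and Ccng1). Genes whose mice did not overlap with control, such as Rec8 and Cdkn1a in both cKO lines, were 17.7% of all genes in the NELF-B cKO and 25.9% in the TDP-43 cKO.

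Of 16 synaptonemal complex and axis genes tested, 0 were higher and 1 lower in the NELF-B cKO (median -0.16), and 1 was higher and 1 lower in the TDP-43 cKO (median 0.11). Rec8, a cohesin subunit of meiosis, stood at 2.98, 1.40, 2.27 and 1.96 CPM in control, 1.18 and 0.553 in the NELF-B cKO and 0.811 and 0.848 in the TDP-43 cKO, so that these 4 cKO mice were lower (log2 fold changes -1.07, adjusted p = 0.42, and -1.34, adjusted p = 0.50, edgeR). At these levels the cKO values of Rec8 rest on few UMIs per mouse. Rad21l, another meiotic cohesin subunit, stood at 1.03 to 1.49 CPM in control and at 3.36 and 3.39 in the TDP-43 cKO (log2 fold change 1.52, adjusted p = 0.42). Sycp1, the transverse filament of the synaptonemal complex, stood at 1112 ± 106 CPM (SD, n = 4) in control.

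The 2 NELF-B cKO mice differed from each other in part of this list. Members were split by the late-gene ratio, the UMIs of the 4 late genes over those of Piwil1, which the rule used. At a ratio under 0.1, Sycp1 stood at 1604, 2282, 1753 and 2125 CPM in control, at 595 and 1802 in the NELF-B cKO and at 2070 and 2465 in TDP-43 cKO replicates 2 and 3. At a ratio of 0.1 or more it stood at 922, 990, 812 and 928 CPM in control, at 380 and 819 in the NELF-B cKO and at 938 and 1203 in the TDP-43 cKO. NELF-B cKO replicate 1 was thus under every other mouse at both ratios and replicate 2 lay within or close to control. Tex12, a protein of the central element, was likewise lowest in that mouse, at 113 CPM in NELF-B cKO replicate 1 against 242 to 325 CPM in control at a ratio under 0.1, and at 56.1 against 122 to 176 CPM above it. Sycp2, a protein of the axis, and Syce1 of the central element were not low in that mouse, with 983 and 393 CPM in replicate 1 at a ratio under 0.1 against 773 to 964 and 341 to 444 CPM in control. With both mice in the fit, the log2 fold change of Sycp1 was -0.65 (SE 0.37, adjusted p = 0.71) at a ratio under 0.1 and -0.62 (SE 0.24, adjusted p = 0.28) above it.

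**Figure D5:**
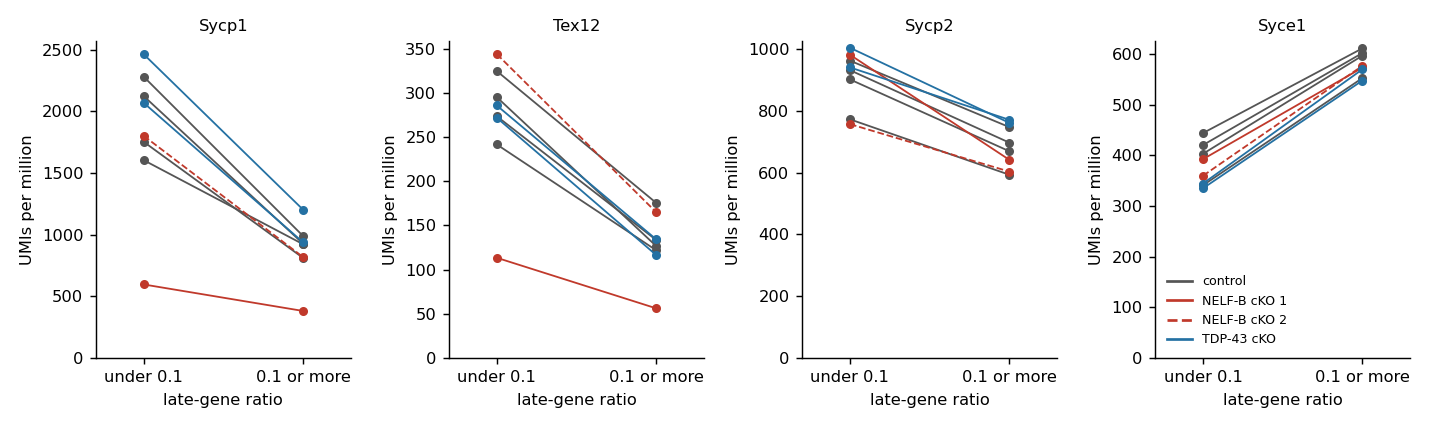
CPM of 4 synaptonemal complex genes in members without mixed barcodes at a late-gene ratio under 0.1 and at 0.1 or more, with 1 line per mouse and without TDP-43 cKO replicate 1. The line of NELF-B cKO replicate 1 lies below all others for Sycp1 (595 and 380) and Tex12 (113 and 56.1) and among them for Sycp2 and Syce1.

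The share of members with a ratio under 0.1 was 20.6%, 21.4%, 20.4% and 26.6% in control, 9.05% and 46.7% in the NELF-B cKO, and 29.9% and 31.1% in TDP-43 cKO replicates 2 and 3. The NELF-B cKO mice lay on either side of control (difference of means 5.62 points). Both TDP-43 cKO mice lay above control (difference of means 8.24 points), and replicate 1 stood at 25.0% of its 8 members. The ratio is made of the genes of the rule, so these shares are a description with no test. At 20000 UMIs per member the shares were 27.4% to 32.9% in control, 16.5% and 40.9% in the NELF-B cKO, and 29.9% and 42.2% in the TDP-43 cKO, which then overlapped with control.

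Of 29 genes of break formation and strand exchange, 1 was higher and 1 lower in the NELF-B cKO (median -0.14) and 1 higher and 0 lower in the TDP-43 cKO (median 0.09). Of 18 crossover genes, 1 was higher and 2 lower in the NELF-B cKO (median -0.10) and 1 higher and 0 lower in the TDP-43 cKO (median 0.02). Hfm1, a helicase of crossover formation, stood at 73.0 to 97.1 CPM in control and at 42.2 and 76.6 CPM in the NELF-B cKO, so that replicate 1 alone was below control.

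No gene of the piRNA list passed even the unadjusted limit. Of 27 genes tested, 0 were higher and 0 lower in either cKO at an unadjusted p under 0.05 (edgeR, Piwil1 not counted), with medians of 0.04 and 0.08. Mael, which is needed for transposon silencing and piRNA precursors, stood at 676 to 780 CPM in control, 779 and 742 in the NELF-B cKO and 706 and 698 in the TDP-43 cKO. The helicase Ddx4 stood at 515 to 574 CPM in control, 466 and 633 in the NELF-B cKO and 554 and 571 in the TDP-43 cKO. Piwil2 was 238 to 269 CPM in control, 161 and 331 in the NELF-B cKO and 274 and 274 in the TDP-43 cKO. The NELF-B cKO mice thus lay on opposite sides of control for Ddx4 and Piwil2.

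Of 20 transcription regulators, 2 were higher and 1 lower in the NELF-B cKO (median 0.01) and 1 was higher and 1 lower in the TDP-43 cKO (median 0.05). Mybl1, the activator of pachytene piRNA genes, stood at 102 to 149 CPM in control, 116 and 120 in the NELF-B cKO and 125 and 134 in the TDP-43 cKO. Tcfl5, a partner of Mybl1, stood at 433 to 463 CPM in control, 464 and 413 in the NELF-B cKO and 459 and 473 in the TDP-43 cKO. The cKO values of Mybl1 lay within the control range, and those of Tcfl5 lay below, within and above it. Spz1, a testis basic helix-loop-helix protein, stood at 8.12 to 14.5 CPM in control and at 5.33 and 4.10 CPM in the TDP-43 cKO (log2 fold change -1.25, SE 0.30, adjusted p = 0.40).

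Of 18 genes of checkpoints and apoptosis, 1 was higher and 2 lower in the NELF-B cKO (median 0.05) and 3 were higher and 0 lower in the TDP-43 cKO (median 0.20). Cdkn1a, the p21 inhibitor of cyclin kinases, stood at 1.59, 2.63, 0.995 and 1.69 CPM in control, 6.56 and 3.87 in the NELF-B cKO and 4.64 and 10.9 in the TDP-43 cKO, so that these 4 cKO mice were above control (log2 fold changes 1.66, adjusted p = 0.22, and 2.14, adjusted p = 0.37), while TDP-43 cKO replicate 1 was at 2.18 CPM. Ccng1, a target of p53, stood at 1.96 to 3.07 CPM in control, 4.79 and 3.04 in the NELF-B cKO and 4.06 and 9.33 in the TDP-43 cKO. Zfy2, a zinc finger gene of the Y chromosome that can trigger loss of spermatocytes when it escapes silencing, stood at 1.56 to 5.04 CPM in control, 11.4 and 1.11 in the NELF-B cKO and 7.77 and 17.2 in the TDP-43 cKO (log2 fold change 2.17, adjusted p = 0.41). Of 27 sex body genes, 1 was higher and 0 lower in each cKO, in both cases Scml2. Of 25 cyclins and kinases of the divisions, 2 were higher and 2 lower in the NELF-B cKO (median 0.02) and 3 higher and 0 lower in the TDP-43 cKO (median 0.08).

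Of 21 genes of NELF and pause release, 0 were higher and 3 lower in the NELF-B cKO (median 0.04), namely Nelfb, Ccnt1 and Ell2. Ell2, a subunit of elongation complexes, stood at 5.78, 4.55, 6.29 and 5.10 CPM in control, 2.49 and 2.21 in the NELF-B cKO and 5.91 and 3.39 in the TDP-43 cKO (log2 fold change -1.15, SE 0.31, adjusted p = 0.22). Ccnt1, the cyclin of P-TEFb, stood at 29.5 to 33.6 CPM in control and 19.7 and 28.5 in the NELF-B cKO (-0.43, adjusted p = 0.36). Of the other NELF subunits, Nelfa stood at 61.1 to 64.6 CPM in control and 63.1 and 73.9 in the NELF-B cKO, Nelfcd at 29.8 to 42.3 and 26.8 and 36.2, and Nelfe at 145 to 178 and 146 and 169. None of these 3 differed beyond the spread between mice (adjusted p of 0.687 or above, edgeR). For the TDP-43 cKO the list had 1 gene higher and 0 lower, which was Polr2a, the largest subunit of RNA polymerase II, at 192 to 273 CPM in control and 302 and 354 CPM in replicates 2 and 3 (0.41, adjusted p = 0.51).

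Genes of spermatids and the acrosome were low in the members of the TDP-43 cKO. Of 29 tested, 17 were lower and 0 higher in the TDP-43 cKO, with a median of -2.27 (also with Prm2, which had no UMI there, at its bound), and 5 were lower and 0 higher in the NELF-B cKO, with a median of -0.62. Over all members 16 were lower in the TDP-43 cKO (median -2.24) and 4 in the NELF-B cKO (median -0.64). Prm1, a protamine, stood at 25.6, 1.47, 39.5 and 19.2 CPM in control, 35.5 and 0.277 in the NELF-B cKO and 0.232 and 0.706 in the TDP-43 cKO. Tnp1, a transition protein, stood at 22.5, 1.05, 22.0 and 12.6 CPM in control, 16.2 and 0 in the NELF-B cKO and 0.232 and 0.424 in the TDP-43 cKO. Acrv1, a protein of the acrosome, stood at 3.15 to 10.6 CPM in control, 2.30 and 0 in the NELF-B cKO and 0.695 and 1.84 in the TDP-43 cKO. Prm1, Tnp1 and Prm2 lay under the count minimum of the fit in TDP-43 cKO replicates 2 and 3. They thus entered the test only through mice in which they were higher. The part of this filter in the counts and medians of the list was not tested. The estimated share of free RNA in the members was higher in control, at 8.30% to 13.1% of the UMIs in control, 6.63% and 4.24% in the NELF-B cKO and 5.36% and 5.34% in TDP-43 cKO replicates 2 and 3. With free RNA subtracted, 17 of the 29 genes no longer had enough counts to be tested, and of the other 12, 0 were lower and 1 was higher in the TDP-43 cKO at an unadjusted p under 0.05. The gene that was higher, Spaca1, a membrane protein of the acrosome, was at 0 in every control mouse after the subtraction and passed the count minimum only through the cKO mice. The genes left differ from the list above, so their median is not set beside it, and the part of free RNA in these values was not tested.

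The X-linked genes that have a copy on an autosome for use in spermatocytes were 9 in the test. In the TDP-43 cKO 4 were higher and 0 lower (median 0.56), and in the NELF-B cKO 2 were higher and 1 lower (median 0.06). Of all 457 X-linked genes tested, 156 were higher in the TDP-43 cKO (median 0.67) and 75 in the NELF-B cKO (median 0.18). Over all members, 1 of 10 genes of the list was higher in each cKO (median 0.24 in the TDP-43 cKO and 0.02 in the NELF-B cKO). Ubl4a, a ubiquitin-like protein, stood at 2.52, 1.54, 2.15 and 1.83 CPM in control, 9.65 and 5.26 in the NELF-B cKO and 5.10 and 5.37 in the TDP-43 cKO (log2 fold changes 1.99, SE 0.29, adjusted p = 0.079, and 1.40, SE 0.31, adjusted p = 0.39). Rpl10, a ribosomal protein, stood at 5.73 to 9.14 CPM in control, 6.63 and 9.41 in the NELF-B cKO and 13.2 and 17.8 in the TDP-43 cKO (log2 fold change 1.04, adjusted p = 0.39). Of 8 autosomal copies, 0 were higher in either cKO and 1 was lower in the TDP-43 cKO.

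Markers of other cells moved with some of these results. Of the 5 Leydig markers tested in members without mixed barcodes, 4 were higher at an unadjusted p under 0.05 in the NELF-B cKO, where the list summed to 33.5 and 53.9 CPM against 16.6 to 26.5 CPM in control. Of the 6 spermatogonial markers, 3 were higher in the TDP-43 cKO, at 53.2 and 48.9 CPM in all against 25.9 to 44.8 CPM in control. Sertoli markers summed to 54.6 to 118 CPM in control, 47.2 and 246 in the NELF-B cKO and 128 and 121 in the TDP-43 cKO. The mixed barcodes were set apart by these same markers. Over all members, 1 of 6 Leydig markers was higher in the NELF-B cKO and 2 were lower in the TDP-43 cKO, 0 of 6 spermatogonial markers were higher or lower in either, and all 4 macrophage markers were higher in the NELF-B cKO, at 10.5 and 9.95 CPM in all against 2.22 to 3.93 CPM in control. Markers of leptotene and zygotene, the stages before pachytene, summed to 530 to 621 CPM in all members of control, 434 and 800 in the NELF-B cKO, and 448, 711 and 789 in the TDP-43 cKO. NELF-B cKO replicate 2 and TDP-43 cKO replicates 2 and 3, which lay above control there, are also the mice whose X-linked share lay above control without mixed barcodes. The part of all these markers in the results was not tested.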

How the data were processed

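The deposited matrices are UMI counts in whole numbers for each gene in each barcode. The authors produced them with Cell Ranger on the mm10 build, and they precede any choice of cells or normalization. The submitters' processing notes list Cell Ranger 6.1.1 and 7.0.0, Seurat 4.2.0 and DESeq2 1.36. Positions are from an annotation of GRCm38, where 32235 of 32285 genes matched by identifier. Members, lists and tests were chosen with earlier results of these data known.

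UMI counts of the members were summed per mouse. Mice with at least 10 members entered 1 fit of edgeR 4.0.16 in R 4.3.3 (filterByExpr, TMM, glmQLFit, glmQLFTest) with the group as the term, and p-values were adjusted by Benjamini-Hochberg over all genes. A gene was called at an adjusted p under 0.05. Shares were compared over mice by two-sided exact permutation tests (scipy 1.17.1). The labels do not say that mice were raised apart, so p-values measure the spread between these mice. Thinning drew 20000 UMIs per member. Free RNA was taken from barcodes of 1 to 100 UMIs, scaled so that it accounts for all Sertoli, Leydig, interstitial and macrophage markers left in the members without mixed barcodes, and subtracted from the sums. No doublet caller was run. Members of 150000 UMIs or more, and mixed barcodes, were left out as alternatives. On simulated counts with 200 changed genes at a log2 size of 2, the fit recovered 200 with 13 false calls in each comparison (16987 and 16951 genes). The changed genes were drawn only from genes above a minimum level, and each gene had the same spread in every mouse. The simulation thus does not show what the fit would miss among genes of low level or in mice that vary unequally.

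Named genes were the targeted genes, the genes of the rule and of the lists, the 20 leading genes of the members, and per cKO up to 10 called genes in each direction without overlap between mice, or the 10 of lowest p. Genes called without the mixed barcodes, Usp26, Ndufa1, 2810403D21Rik and Snx12 were added after their values were seen. Alternatives covered DESeq2 1.42.0, the filter on low counts, the mice in the fit, depth, progression, the targeted gene, free RNA, the replicate block and each replicate left out. Sorted cells and nascent RNA of the study were not used here. One gene of the break formation list is not reported here by name.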

Additional observations from a re-analysis of the deposited data

Results flagged for a closer look

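In 6 of 61 values tested over the 4 control mice, 1 mouse stood apart from the others, and chance alone sets 1 in 20 groups apart. The share of members with a late-gene ratio under 0.1 stood at 26.6% for control replicate 4 against 20.4% to 21.4% for the rest of the group. Over all members, control replicate 2 stood apart for 4 genes, with Syce1 at 449 CPM against 543 to 549 CPM, Scml2 at 37.9 CPM against 14.9 to 17.4 CPM, Resf1 at 28.6 CPM against 14.1 to 16.2 CPM, and Rad21l at 2.16 CPM against 1.53 to 1.63 CPM. That mouse also held 89 of the 238 mixed barcodes. Without them its values were 514 CPM for Syce1, 10.7 CPM for Scml2, 18.8 CPM for Resf1 and 1.19 CPM for Rad21l. Control replicate 3 stood apart for Gm5934, at 0.185 CPM against 0.562 to 0.618 CPM.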

How the results depend on the processing

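The fits hold 2 mice per cKO. For the NELF-B cKO the count of called genes, 2 over all members, was 79 with DESeq2, 12 without the filter on low counts, 5 with free RNA subtracted, 1 without members of 150000 UMIs or more, and 0 with only the groups compared or without members with a Nelfb UMI in both groups. It ranged from 0 to 748 when 1 mouse was left out. Without mixed barcodes it was 6, and then 187 with DESeq2, 9 with free RNA subtracted, 49 at a late-gene ratio of 0.1 or more, 1 under 0.1, 1 without cKO members with a Nelfb UMI, and 0 to 3142 when 1 mouse was left out (4 without control replicate 1, 347 without NELF-B cKO replicate 1). For the TDP-43 cKO the count of 0 became 97 with DESeq2, 3 without the filter, 1 at a ratio under 0.1, 2 with free RNA subtracted, and 1 without mixed barcodes, then 137 with DESeq2, 2 at a ratio of 0.1 or more, 0 under 0.1, 0 with free RNA subtracted, and 0 to 2 when 1 mouse was left out. The log2 fold change of Nelfb was -3.33 with only the groups compared (adjusted p = 0.0600, edgeR) and -3.95 to -2.63 when 1 mouse was left out. Without mixed barcodes and cKO members with a Nelfb UMI, 0 genes were higher and 1 lower, so none of the 5 rises was called. That alternative sets Nelfb to 0 in the cKO by its own choice of members. It took none from control, so it does not compare like cells. The cause of these moves was not tested.

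The X-linked share turned in sign in the NELF-B cKO without cKO members with a Nelfb UMI (-0.0225 points) and over mice left out (-0.0194 to 0.101), and in the TDP-43 cKO over mice left out (-0.0239 to 0.184). The share at a ratio under 0.1 in the NELF-B cKO was -1.30 points at 20000 UMIs per member and -13.2 to 24.4 over mice left out. Hnf4aos, negative over all members of the TDP-43 cKO, was positive with every mouse in the fit (1.38), without control replicate 2 (0.48, the highest of -0.73 to 0.48 over mice left out), at a ratio under 0.1 (1.02), without mixed barcodes (4.20), there with free RNA subtracted (9.11, SE 1.28, where every control mouse was at 0, so that its size depends on the prior count, and the call was lost, adjusted p = 0.46, edgeR), and there at a ratio of 0.1 or more (4.28). The differences in the shares of members kept their sign under all alternatives run, which set the depth, the Piwil1 minimum, the late-gene limit, the targeted gene, the mixed barcodes and single mice. Leaving out 1 mouse moved them by over 1.5 times in the NELF-B cKO at 20000 UMIs (-36.5 to -16.8 points) and over all barcodes (-5.56 to -2.29 in the NELF-B cKO, -5.68 to -2.41 in the TDP-43 cKO). Leaving out cKO members with a Tardbp UMI moved the TDP-43 cKO difference over all barcodes to -6.84 points. It left 0, 3 and 6 cKO members and took none from control, so it does not compare like cells.

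With the replicate number of the labels as a block, the NELF-B cKO had 2 calls and the TDP-43 cKO 0 over all members, with Nelfb at -3.25 (adjusted p = 0.0155, edgeR) and Tardbp at -0.22, and without mixed barcodes the block left 0 calls in either cKO. Deviations of same-numbered mice correlated at 0.20, 0.31, -0.34, -0.11 and -0.12. In a group of 2 mice the deviations mirror each other, so these values cannot tell whether the numbers pair the mice. Members of the TDP-43 cKO without a Tardbp UMI were too few to be fitted.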
